A study of Mus musculus with 10 samples.

Results

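Gas5, Snhg1, Snhg3, Snhg5, Snhg6, Snhg8 and Snhg12 are long noncoding RNA genes that carry small nucleolar RNAs (snoRNAs) in their introns, and Malat1 and Neat1 are long noncoding RNA genes whose products stay in the nucleus. These 9 genes were chosen by symbol, with earlier results of these data known, and they are 9 of the 33393 genes and 73 of the 95912 transcripts measured. RNA was sequenced from CD34- HSCs, sorted from the femoral bone marrow of 8-week-old C57BL/6 mice as lineage-negative, cKit+, Sca1+ cells without CD34 and Flt3. The 5 libraries labelled Reg1Δ/Δ came from Vav1-iCre; Reg1flox/flox mice, in which Cre under vav elements acts in all blood cells to delete the floxed Regnase-1 gene (Zc3h12a). The 5 controls came from Reg1flox/flox mice, so that all 10 mice carried the floxed alleles. Each library was made from 1 mouse, and p values measure the spread between these mice. The names of the samples and the numbers per group in the study divide them into 2 experiments, the first with 3 and the second with 2 libraries per group.

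Expression was measured as TPM, the abundance of a transcript corrected for its length and expressed relative to all transcripts of its library, and the TPM of the transcripts of a gene were summed. Depth cannot be read from TPM, so no counting error is given. A linear model in limma, fitted to log2(TPM + 1) with a term for the experiment, tested the 12874 genes that reached 1 TPM in 5 or more libraries, and FDR is the p value adjusted over all of them by the Benjamini-Hochberg method. A fold change on this scale understates the change of genes with a low TPM. All 9 genes passed this filter, and the same model was fitted to the 36560 transcripts that reached 1 TPM in 4 or more libraries. The deleted gene went against the label. Its TPM was 1.83, 1.28 and 1.60 in the controls and 3.54, 2.08 and 2.51 in the libraries labelled Reg1Δ/Δ of the first experiment, and 1.48 and 6.07 against 10.3 and 8.52 in the second, where the groups did not overlap in either experiment (log2 fold change 0.83, SE 0.28, FDR = 0.0314). TPM per transcript does not show which exons were read, so directions are given here for the libraries as they are labelled. Genes at 1 TPM or more numbered 14276 to 14307 in the controls and 12006 to 12048 in the libraries labelled Reg1Δ/Δ of the first experiment. In the second they numbered 13366 to 13717 and 11256 to 11398. The part of this difference in the results below was not tested. The 2 experiments also differed from each other. Protein-coding transcripts held 46.2 to 49.1% of the TPM of the first and 73.5 to 81.1% of the second, and transcripts under 200 bases held 16.8 to 22.2% and 1.93 to 11.2%, with the 11.2% in the second library labelled Reg1Δ/Δ of the second experiment.

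Markers of other cells moved with the label, beside the 15% of all tested genes that were higher and the 37.9% that were lower. The B lineage markers Cd79a, Cd79b, Vpreb1 and Igll1 were all 4 lower in the libraries labelled Reg1Δ/Δ, where their summed TPM was 4.93 to 15.6 and 2.13 to 5.91 in the first and second experiment, against 114 to 748 and 777 to 916 in the controls. Of 5 neutrophil markers 3 were lower, with sums of 231 to 868 and 652 to 688 against 2360 to 3826 and 10109 to 11643. Of 9 genes listed as stem cell markers 8 were lower, with sums of 200 to 584 and 192 to 219 against 949 to 1128 and 391 to 587. This list includes Cd34 and Flt3, the antigens absent from the sorted cells, so it does not measure the sorted stem cells only. Cd34 had a mean of 192 and 66.9 TPM in the controls. All 3 megakaryocyte markers were lower (sums of 77.3 to 93.3 and 15.1 to 23.1 against 214 to 430 and 74.2 to 74.9). Of 5 erythroid markers 2 were higher and 2 lower (554 to 621 and 614 to 834 against 1004 to 2485 and 2520 to 3500), and of 6 proliferation markers 2 were higher and none lower (1121 to 1265 and 1341 to 1452 against 811 to 1029 and 1372 to 1463). The 2 T cell markers, Cd3e and Cd3d, summed to at most 3.53 TPM in any library. Listed at 0 in some of the 5 libraries labelled Reg1Δ/Δ were Vpreb1 (1 library), Igll1 (1) and Cd3e (2), and none of these was at 0 in a control. In such bulk samples fewer cells of a type and less RNA per cell cannot be told apart, and the part of these markers in the results below was not tested.

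SnoRNAs guide chemical modification of ribosomal RNA and other RNAs. Most are cut out of introns, some of protein-coding genes and others of host genes like these, whose spliced RNA has little coding capacity. Several host RNAs, Gas5 among them, begin with a tract of pyrimidines like the messages of ribosomal proteins, are bound by ribosomes and are then degraded by nonsense-mediated decay. Their amounts therefore change with growth and with translation, and Gas5 was named for its accumulation in growth-arrested cells. Nonsense-mediated decay needs the helicase Upf1, which Regnase-1, a ribonuclease that cleaves stem-loops in translated messages, also uses. Malat1 is an abundant RNA of nuclear speckles, the compartments that store splicing factors. Neat1 builds paraspeckles, nuclear bodies assembled around its long form by proteins such as Nono and Sfpq, and its short form ends at a polyadenylation site.

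The starts of the host RNAs are shown first, because the pyrimidine tract is the feature these genes are known to share. The lines give the first 30 bases of the transcript with the highest mean TPM of each host gene, and of the form of Snhg5 that led in the second experiment, from the GENCODE M21 transcripts of GRCm38, with every run of at least 5 C or T in capitals.
Gas5, 346 bases: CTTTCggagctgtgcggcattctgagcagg
Snhg1, 605 bases: gTTCTTgtcggcctcaTTTTTCCTTgttcg
Snhg3, 437 bases: gaCTTCCgggcgttacttaaggtataaata
Snhg5, 440 bases: ccagtgagatgccagcctgcgtgtgaagat
Snhg5, 1004 bases: TTCTTTTacgacggagcctaagataTTCTT
Snhg6, 473 bases: CTTTCTCggcagcgccgtagagcgcgagca
Snhg8, 448 bases: CCCTCgcgcgcaggCTCTTgggagagcgtc
Snhg12, 606 bases: TTTCTCgcttcatccgcggTCCCTgtctgt
The tract opens the transcript at base 1 in Gas5, Snhg6, Snhg8, Snhg12 and the 1004-base form of Snhg5, and begins at base 2 in Snhg1 and base 3 in Snhg3. Such a run, read on the strand of the transcript, occurs somewhere in the first 30 bases of 42.4% of the 12239 leading transcripts of tested genes, so its presence in this window is common. Whether a transcript truly starts at the annotated base was not measured.

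On GRCm38 Gas5 lies on chromosome 1 from 161034422 to 161038539 on the plus strand, and Snhg6 on the same chromosome from 9941959 to 9944118 on the minus strand. Snhg3 and Snhg12 are close together on chromosome 4, from 132348014 to 132353686 on the minus strand and from 132308623 to 132311024 on the plus strand. Snhg8 lies on chromosome 3 from 123507552 to 123508404 and Snhg5 on chromosome 9 from 88521050 to 88522929, both on the minus strand. Snhg1, Malat1 and Neat1 are on chromosome 19, from 8723475 to 8726443 on the plus strand, from 5795690 to 5802672 on the minus strand and from 5824708 to 5845478 on the minus strand.

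The comparison of libraries labelled Reg1Δ/Δ with controls asks which of these RNAs differ in HSCs of mice bred to lack Regnase-1. Snhg3 and Snhg5 were higher in the libraries labelled Reg1Δ/Δ, Neat1 and Malat1 were lower, and Gas5, Snhg1, Snhg6, Snhg8 and Snhg12 did not pass the threshold. The genes called were thus 4 of 9, where 52.9% of all tested genes were called, 15% as higher and 37.9% as lower, so the count itself is no larger than the background. The median log2 fold change over all tested genes stood at -0.25, so the changes below are also given as percentiles. Within the first experiment the same 4 genes passed (49.7% of all tested genes, 12.3% higher and 37.4% lower), and within the second Snhg3, Malat1 and Neat1 did (29.5%, with 6.6% higher and 22.9% lower). None of the 9 genes passed the test in limma of the difference between the fold changes of the experiments (0.443% of all tested genes, 0.225% higher and 0.217% lower), and 1, Snhg12, had an unadjusted p under 0.05.

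**Figure D1:**
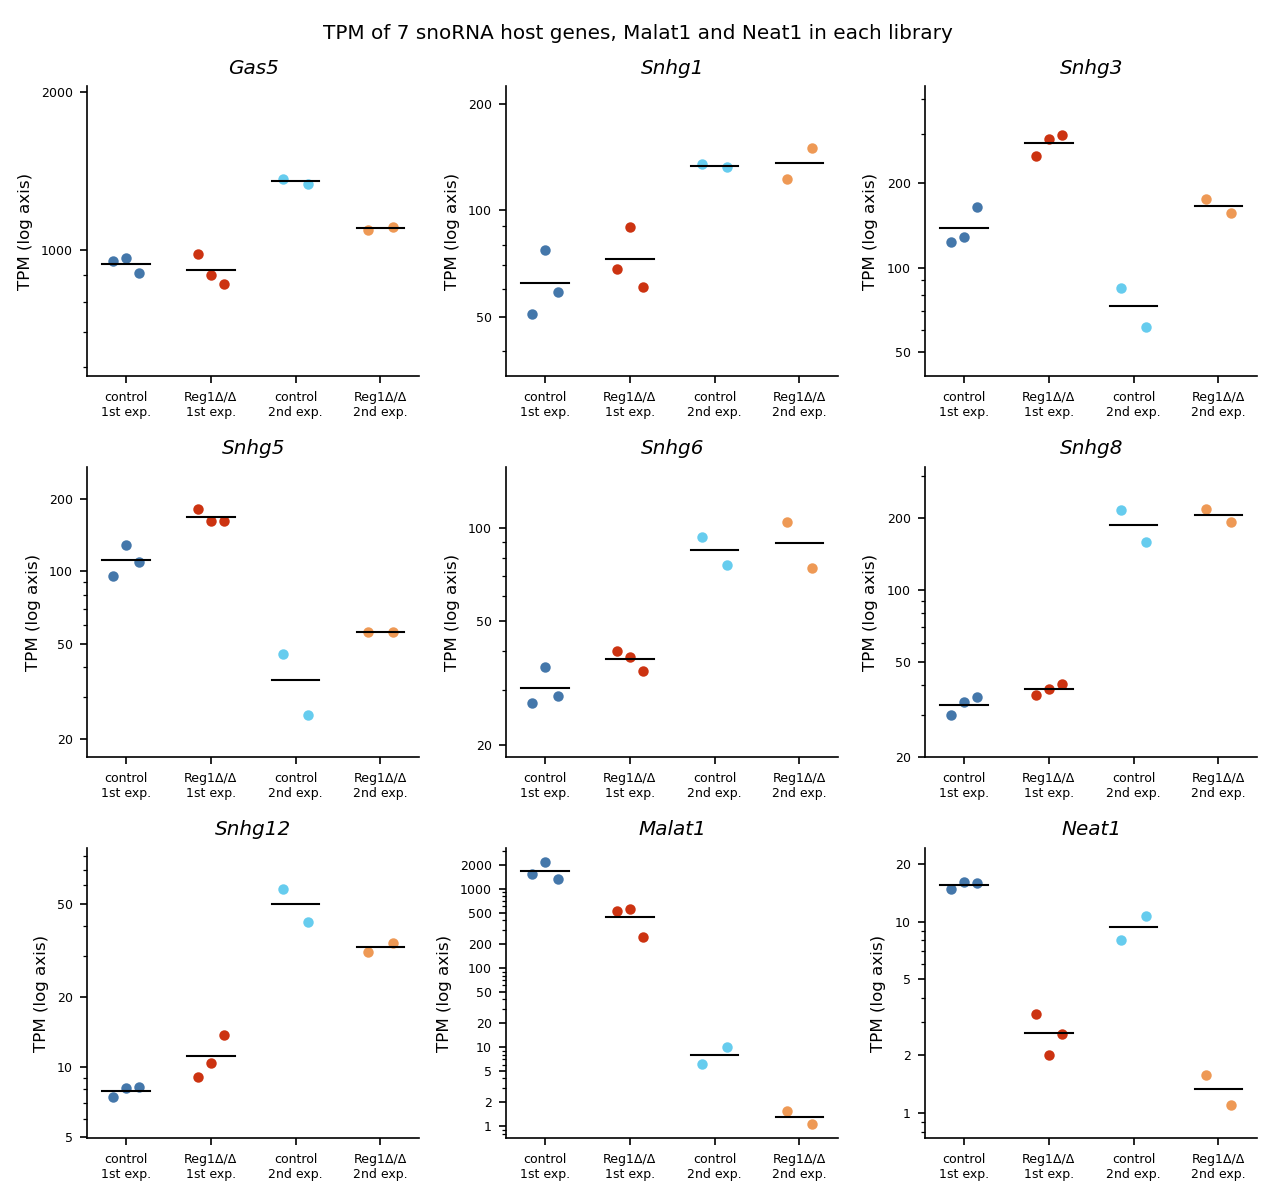
TPM of each gene on a log axis in the 10 libraries; points are libraries, and horizontal lines are the means of the 3 or 2 libraries of a group. The groups of the same experiment do not overlap in both experiments for Snhg3 and Snhg5, which are higher in the libraries labelled Reg1Δ/Δ, and for Malat1 and Neat1, which are lower.

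Snhg3, which hosts Snora73a and Snora73b, rose most. Its TPM in the first experiment was 123, 129 and 165 in the controls and 252, 289 and 298 in the libraries labelled Reg1Δ/Δ. In the second it was 84.3 and 61.3 in the controls and 176 and 157 in the libraries labelled Reg1Δ/Δ. No control reached a library labelled Reg1Δ/Δ of its own experiment, although the highest control of the first experiment lay among the libraries labelled Reg1Δ/Δ of the second. The means were 139 ± 22.7 and 280 ± 24.4 TPM (SD, n = 3), a 2.01-fold difference, and 72.8 ± 16.3 and 167 ± 13.3 TPM (SD, n = 2), a 2.29-fold difference. On the log2(TPM + 1) scale the difference was 1.09 (SE 0.13, FDR = 0.000107 by limma), which placed Snhg3 at the 97.9th percentile of the tested genes, and it passed within the first experiment (FDR = 0.00166) and the second (FDR = 0.00322) in limma. With the second experiment fitted alone it was not called (1.20, FDR = 0.0611). Its 437-base transcript, which held 68.1 to 89.9% of the gene's TPM (first experiment) or 81.5 to 97.4% (second), rose by itself (log2 fold change 0.98, FDR = 0.00519 over transcripts), as did 2 rarer forms, of 426 bases (1.41, FDR = 0.0375) and of 581 bases (1.01, FDR = 0.0104).

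Snhg5, the host of Snord50a and Snord50b, was 1.51-fold higher in the first experiment and 1.58-fold in the second. The controls of the first experiment had a TPM of 95.7, 129 and 109, and the libraries labelled Reg1Δ/Δ 181, 162 and 162. In the second experiment the controls had 45.1 and 25.3, and the libraries labelled Reg1Δ/Δ 55.8 and 55.7. The 4 groups did not overlap one another. The log2 fold change was 0.64 (SE 0.16, FDR = 0.00691). Within the first experiment it was 0.60 (SE 0.21, FDR = 0.0423) and within the second 0.71 (SE 0.26), which missed the threshold (FDR = 0.0722). The value of the second experiment passed without its control 1 (1.11, FDR = 0.00677) and with median-of-ratios scaling (1.05, FDR = 0.0219), and it was 0.30 (FDR = 0.350) without its control 2. The call of the first experiment was lost in 13 of 23 other settings, among them the removal of control 1 (0.50, FDR = 0.126). None of the 6 Snhg5 transcripts passed on its own with both experiments together. The 440-base and 883-base forms were listed at 0 throughout the second experiment, so only the first could show a difference in them. Within the first the 883-base retained-intron form passed as higher (log2 fold change 1.06, FDR = 0.0467 by limma over transcripts).

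Gas5 was the most abundant of the 7 host RNAs in every library. Its TPM in the first experiment was 956, 967 and 906 in the controls and 985, 899 and 865 in the libraries labelled Reg1Δ/Δ, which overlapped. In the second experiment it was 1368 and 1338 in the controls and 1095 and 1109 in the libraries labelled Reg1Δ/Δ, which did not. The log2 fold change of -0.14 (SE 0.09, FDR = 0.221) did not pass, nor did those of the first (-0.04, FDR = 0.772) and the second experiment (-0.30, FDR = 0.138). The difference of the second passed as lower when no filter on low values was used (FDR = 0.0261). Over both experiments it passed as lower with quantile normalization (-0.25, FDR = 0.0477) and was 0.27 with median-of-ratios scaling. Under these scalings the median over all tested genes was 0.14 and 0.10, in place of -0.25.

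Snhg12, the host of Snora16a, Snora44, Snora61 and Snord99, had differences of opposite sign in the 2 experiments. In the first its TPM was 7.41, 8.09 and 8.23 in the controls and 9.09, 10.4 and 13.7 in the libraries labelled Reg1Δ/Δ. In the second it was 57.8 and 41.7 in the controls and 31.1 and 33.9 in the libraries labelled Reg1Δ/Δ. The log2 fold change was 0.42 (SE 0.18, FDR = 0.0796) in the first and -0.58 (SE 0.22, FDR = 0.0792) in the second, and 0.02 (SE 0.21, FDR = 0.939) over both. Within each experiment the groups did not overlap, yet neither difference passed after adjustment. The first passed with quantile normalization (1.12, FDR = 0.0022) and with median-of-ratios scaling (0.84, FDR = 0.00552), under which the median of all tested genes in that experiment was 0.13 and 0.08 in place of -0.33, and the second without its control 2 (-0.81, FDR = 0.0452). Where 1 library of the second experiment is left out, here and below, its group has 1 library, which is assumed to vary like the other groups.

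Snhg8, which hosts Snora24, had a TPM of 29.9, 33.9 and 35.5 in the controls and 36.4, 38.6 and 40.2 in the libraries labelled Reg1Δ/Δ of the first experiment, without overlap. In the second it had 215 and 159 against 218 and 192, with overlap. The log2 fold change was 0.18 (SE 0.11, FDR = 0.194). Snhg6, the host of Snord87, had 27.3, 35.4 and 28.8 against 40.0, 38.4 and 34.5 TPM in the first experiment, then 93.6 and 76.0 against 105 and 74.0 in the second (0.20, SE 0.14, FDR = 0.234). Snhg1, whose introns hold Snord22 and other C/D box snoRNAs, had 50.9, 77.0 and 58.8 against 68.1, 89.7 and 60.8 TPM in the first and 135 and 132 against 123 and 150 in the second (0.14, SE 0.15, FDR = 0.452). For Snhg6 and Snhg1 the groups overlapped in both experiments. With median-of-ratios scaling Snhg8 (0.59, FDR = 0.00229), Snhg6 (0.61, FDR = 0.00576) and Snhg1 (0.56, FDR = 0.0206) passed as higher over both experiments in limma. The median of all tested genes was then 0.10 in place of -0.25. Within the first experiment Snhg8 (0.47, FDR = 0.0281) and Snhg6 (0.56, FDR = 0.0337) passed with quantile normalization, where that median was 0.13 in place of -0.33.

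**Figure D2:**
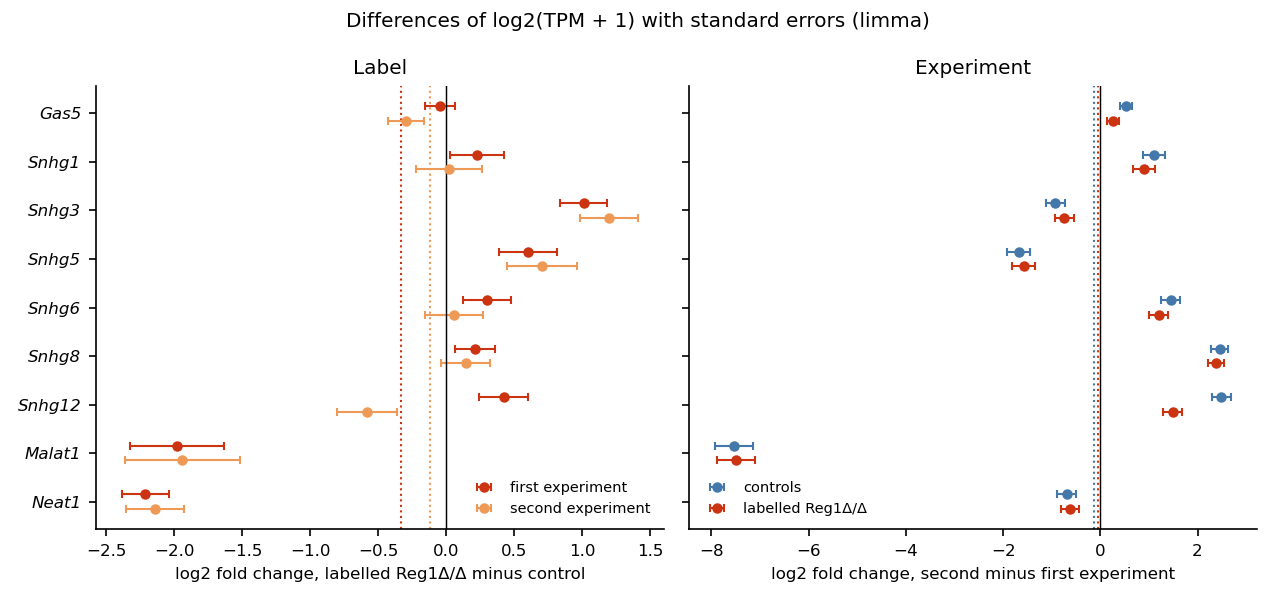
Differences of log2(TPM + 1) for each gene with standard errors from limma; the left panel compares libraries labelled Reg1Δ/Δ with controls in each experiment, the right panel the second with the first experiment within each label, and dotted lines mark the median of all tested genes. On the left Snhg3 and Snhg5 lie above 0 in both experiments and Malat1 and Neat1 between -2.21 and -1.94, and on the right Malat1 lies at -7.54 and -7.50.

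Neat1 had the largest fall of the 9 genes. Its TPM in the first experiment was 14.9, 16.2 and 15.9 in the controls and 3.31, 2.01 and 2.58 in the libraries labelled Reg1Δ/Δ. In the second it was 8.06 and 10.7 in the controls and 1.58 and 1.11 in the libraries labelled Reg1Δ/Δ. Every control of both experiments was above every library labelled Reg1Δ/Δ of either. The controls were 5.96-fold higher in the first experiment (15.7 ± 0.715 against 2.63 ± 0.653 TPM, SD, n = 3) and 6.99-fold in the second (9.40 ± 1.89 against 1.34 ± 0.336 TPM, SD, n = 2). The log2 fold change of -2.19 (SE 0.13, FDR = 1.3e-06) lay at the 5.55th percentile of the tested genes, and -2.21 (SE 0.17, FDR = 3.09e-05) and -2.14 (SE 0.21, FDR = 0.000156) were found in limma within the first and second experiment. The 3004-base form carried nearly all of it, with 13.5, 15.5 and 15.5 TPM in the controls and 3.18, 1.94 and 2.35 in the libraries labelled Reg1Δ/Δ of the first experiment, and 7.80 and 10.5 against 1.52 and 1.07 in the second. The 20771-base form, the one around which paraspeckles assemble, was at or below 0.453 TPM in every library and was not tested.

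Malat1 was lower in the libraries labelled Reg1Δ/Δ at 2 very different levels. Its TPM was 1519, 2186 and 1326 in the controls and 527, 552 and 244 in the libraries labelled Reg1Δ/Δ of the first experiment. In the second experiment it was 6.03 and 10.05 in the controls and 1.57 and 1.05 in the libraries labelled Reg1Δ/Δ. The groups did not overlap in either experiment, and the controls were 3.80-fold and 6.14-fold higher. The log2 fold change was -1.97 (SE 0.26, FDR = 0.000163), at the 7.27th percentile, with -1.98 (SE 0.35, FDR = 0.00188) in the first experiment and -1.94 (SE 0.42, FDR = 0.00931) in the second. The call of the second experiment was lost in 5 of 23 other settings. With quantile normalization the log2 fold change was smaller (-0.99, FDR = 0.134). It was -1.61 (FDR = 0.0569) without control 2 and -1.78 (FDR = 0.061) without library 2 labelled Reg1Δ/Δ, each with 1 library left in that group, and with the second experiment fitted alone the FDR was 0.0542.

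Across the genome, 12.7% of tested genes were higher and 31.4% were lower in the libraries labelled Reg1Δ/Δ with no overlap in both experiments. Among the 9 genes 2 were in each class, Snhg3 and Snhg5 in the first and Neat1 and Malat1 in the second. The 2 classes divide by role here, with the 2 higher genes both snoRNA hosts and the 2 lower genes both nuclear RNAs, but with 9 genes this is a description of the list only.

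The level of Malat1 rested on different transcripts in the 2 experiments. In the first, a 485-base spliced transcript held 98.6 to 98.9% of the gene's TPM, with 1502, 2155 and 1309 TPM in the controls and 521, 545 and 242 in the libraries labelled Reg1Δ/Δ. In the second this transcript was listed at 0 in all 4 libraries. The full-length 6983-base transcript had 17, 30.3 and 16.4 TPM in the controls and 6.05, 6.94 and 2.69 in the libraries labelled Reg1Δ/Δ of the first experiment, and 6.03 and 8.27 against 1.19 and 1.05 in the second. It was thus measured in all 10 libraries, without overlap of the groups within either experiment, and was lower on its own (log2 fold change -1.89, SE 0.26, FDR = 0.000922 by limma over transcripts). The starts of both forms are shown because they share them, with the 485-base form starting 1 base further in.
Malat1, 6983 bases: caggcattcaggcagcgagagcagagcagc
Malat1, 485 bases: aggcattcaggcagcgagagcagagcagcg
Their ends differ, and the capitals mark the polyadenylation signal AATAAA, found on the transcript strand in the last 30 bases of the full-length form and of the 3004-base form of Neat1, as it is in 40% of leading transcripts.
Malat1, end of 6983 bases: ttttatgaAATAAAaactaaatatctctca
Malat1, end of 485 bases: agaagattagaaaatggaagtgaaagacga
Neat1, end of 3004 bases: tttacagcaaAATAAAggtttgagattgaa
With the 485-base transcript left out of the sum, an alternative chosen after seeing the data, the log2 fold change of Malat1 by label was -1.89 (FDR = 0.000214), and its difference between the experiments in the controls was -1.28 (FDR = 0.0228) in place of -7.54.

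**Figure D3:**
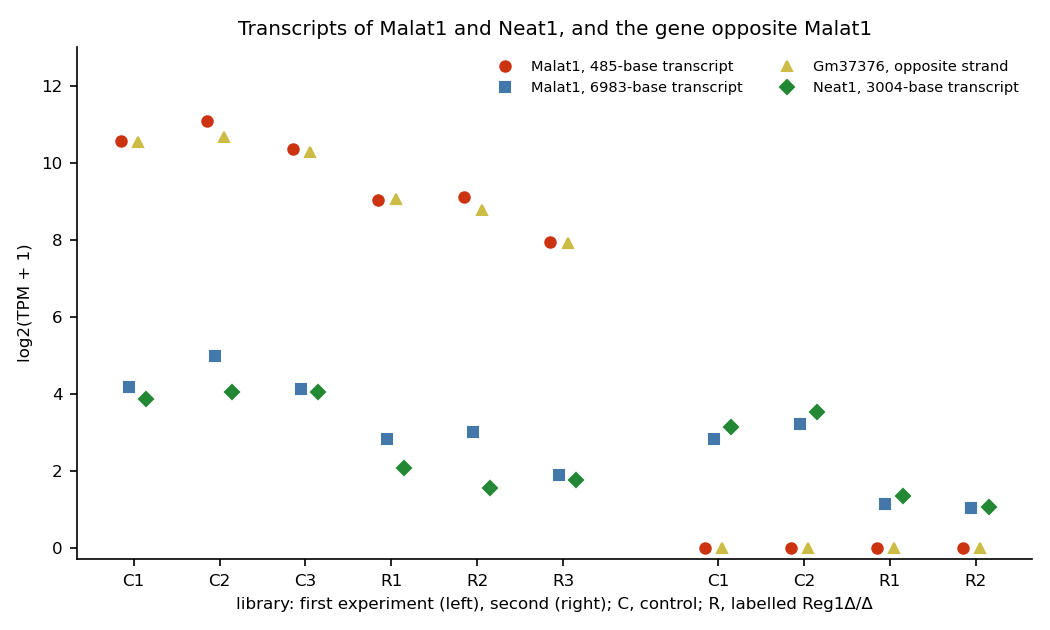
log2(TPM + 1) in each library of the 485-base and 6983-base transcripts of Malat1, of Gm37376 on the opposite strand and of the 3004-base transcript of Neat1. The 485-base transcript and Gm37376 have like values in the first experiment and are at 0 in the second, while the 6983-base transcript and Neat1 are above 0 in all 10 libraries and lower in the libraries labelled Reg1Δ/Δ.

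A gene on the other strand followed the 485-base transcript. Gm37376 is a 453-base unspliced model that lies wholly inside the full-length form of Malat1 and shares 182 bases with the exons of the 485-base form. Its TPM was 1490, 1634 and 1245 in the controls and 526, 434 and 241 in the libraries labelled Reg1Δ/Δ of the first experiment, and it was at 0 in the second. Its log2 fold change was -1.93 in the first experiment, and -1.16 (FDR = 0.0227) over both, where the second could show no difference. The kit does not mark the strand, so reads of these overlapping models cannot be told apart, and the split between them is an estimate of the quantification. The 3004-base form of Neat1 shares 152, 113 and 110 bases with 3 short RNA models on its strand, Gm27533, Gm28006 and Gm27505. In the controls of the first experiment each had between 98.9 and 201 TPM, above the 14.9 to 16.2 TPM of Neat1 itself, and in the libraries labelled Reg1Δ/Δ between 8.40 and 60.6. In the second experiment the only value above 0 was 16.0, for Gm27533 in control 2. Reads in the shared bases cannot be assigned to one model or the other with certainty. These 3 models were looked up after the values of Neat1 were known.

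The comparison of the second with the first experiment asks how far the level of these RNAs depends on the set of libraries. In the controls all 9 genes differed between the experiments, 5 being higher and 4 lower in the second. Of all tested genes 51.8% differed, 21.8% being higher and 30% lower. Scaled to protein-coding transcripts, whose share differs between the experiments, Gas5 turned to -0.22 (FDR = 0.147) and Snhg1 was at 0.37 (FDR = 0.201), so neither was called, and the median of all tested genes was -0.83 in place of -0.13. Gas5 was not called with quantile normalization (0.07, FDR = 0.679) or without transcripts under 200 bases (0.24, FDR = 0.15) either, and Neat1 was not without control 1 of the second experiment (-0.51, FDR = 0.11). Snhg8 (5.66-fold, log2 difference 2.45, FDR = 5.93e-06) and Snhg12 (6.28-fold, 2.49, FDR = 1.63e-05) differed most among the genes that were higher in the second experiment, followed by Snhg6 (1.45, FDR = 0.000373), Snhg1 (1.11, FDR = 0.00327) and Gas5 (0.52, FDR = 0.00756). Malat1 (-7.54, FDR = 1.06e-06), Snhg5 (-1.68, FDR = 0.000458), Snhg3 (-0.93, FDR = 0.00391) and Neat1 (-0.69, FDR = 0.0162) were lower. In the libraries labelled Reg1Δ/Δ 8 of the 9 genes differed in the same directions (46.4% of all tested genes, 22.5% higher and 23.9% lower), and Gas5 did not pass (0.27, FDR = 0.109). Of these 8, Neat1 lost its call in 5 of 21 other settings: without a filter (FDR = 0.055), with quantile normalization (-0.29, FDR = 0.232), without library 1 (-0.49, FDR = 0.0849) or library 3 (-0.63, FDR = 0.0596) labelled Reg1Δ/Δ of the first experiment, and without library 2 of the second (-0.48, FDR = 0.183). Without that last library, Snhg1 (0.76, FDR = 0.0798) and Snhg3 (-0.66, FDR = 0.0869) were not called either. Snhg1 also lost its call when scaled to protein-coding transcripts (0.24, FDR = 0.416), and Snhg3 with quantile normalization (-0.40, FDR = 0.146). In 5 of 21 other settings Gas5 passed in this comparison, as lower when scaled to protein-coding transcripts (-0.40, FDR = 0.0251), where the median of all tested genes was -0.61 in place of -0.04, and as higher in the other 4, up to 1.12 (FDR = 0.00139) without retained-intron transcripts. The labels name no batch of preparation or sequencing, and whatever else differed between the experiments cannot be told apart from the mice. For Snhg1, Snhg5, Snhg6, Snhg8, Snhg12 and Malat1 the log2 difference between experiments, in either direction, was larger than the difference by label in either experiment, for Malat1 only with its 485-base transcript. Without library 2 labelled Reg1Δ/Δ of the second experiment, 1 library is left in that group. Fewer genes were then called among all tested genes, as among the 9.

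The order of the 4 groups therefore differed by gene. Snhg12 was highest in the controls of the second experiment, then in its libraries labelled Reg1Δ/Δ, then in the libraries labelled Reg1Δ/Δ and the controls of the first, with no overlap between neighbours. Snhg5 ran from the libraries labelled Reg1Δ/Δ of the first experiment through its controls to the libraries labelled Reg1Δ/Δ and the controls of the second. Neat1 was highest in the controls of the first and then of the second experiment, followed by the libraries labelled Reg1Δ/Δ of the first and of the second. For Snhg1 and Snhg6, neighbours differed only between the experiments, and within each experiment the groups overlapped.

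**Figure D4:**
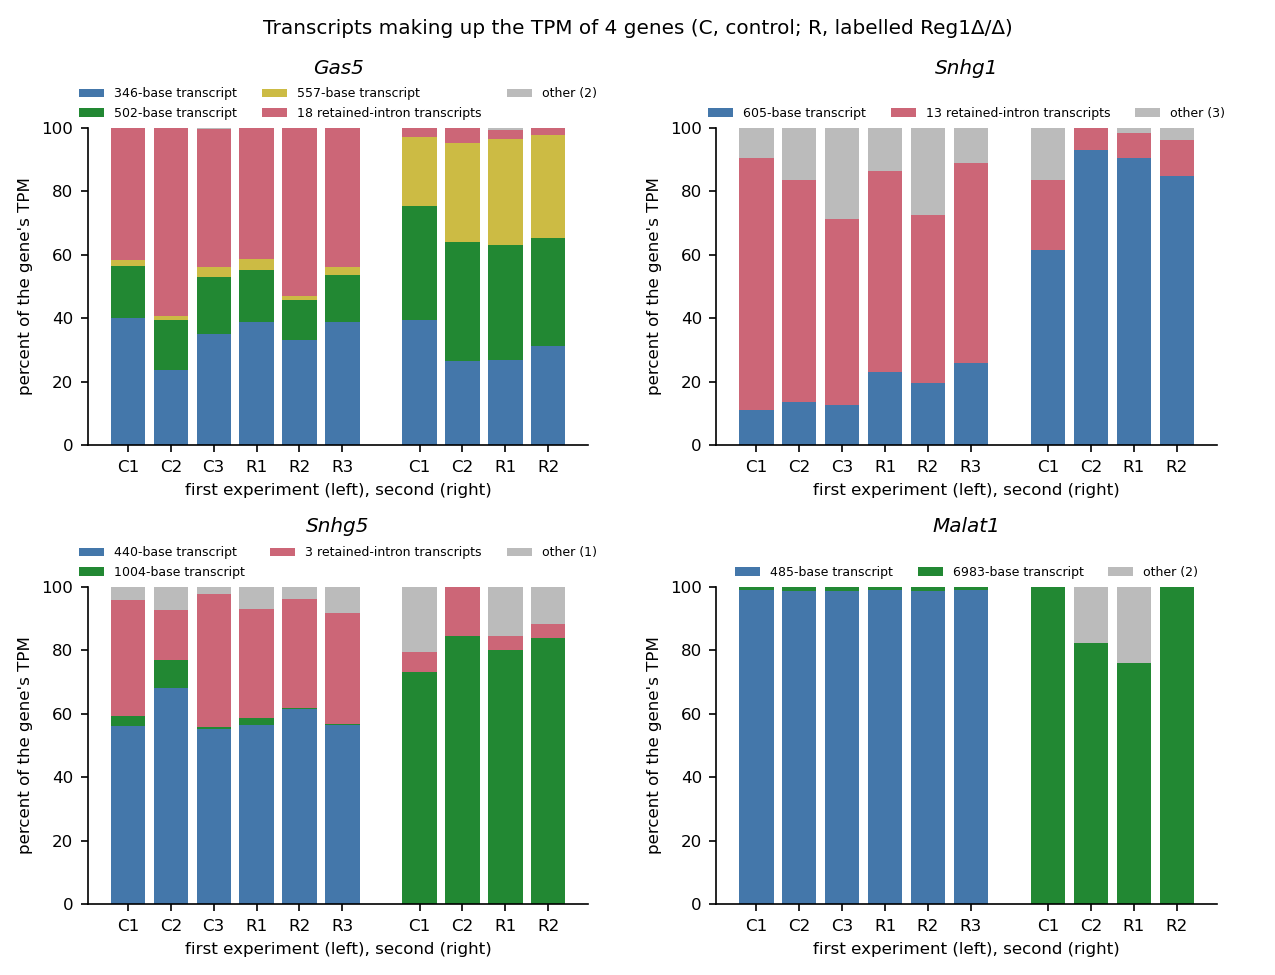
Percent of the TPM of Gas5, Snhg1, Snhg5 and Malat1 held by named transcripts, by all retained-intron transcripts and by the others in each library. The retained-intron share of Gas5 runs from 41.0 to 59.0% in the first and from 2.05 to 4.76% in the second experiment, and the leading transcripts of Snhg5 and Malat1 in the first are at 0 in the second.

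The make-up of the host RNAs differed between the experiments. Of the 73 transcripts 35 are annotated as retained-intron forms, which keep an intron that the leading form lacks. They held 41.0 to 59.0% of the TPM of Gas5 in the first experiment against 2.05 to 4.76% in the second, and 53.1 to 79.4% against 7.17 to 22.3% of that of Snhg1. In Snhg8 the shares were 6.43 to 9.58% and 0.156 to 1.71%, and in Snhg5 they were 15.7 to 42.2% and 4.33 to 15.7%. Over all genes, retained-intron transcripts held 9.28 to 10.3% of the TPM of the first experiment against 3.17 to 3.97% of the second. Of the 59 member transcripts that were tested, 8 were higher and 25 lower in the controls of the second experiment (58.6% of all tested transcripts, 21.8% higher and 36.7% lower). In the libraries labelled Reg1Δ/Δ 8 were higher and 27 lower (52.5%, with 21.8% higher and 30.7% lower). A transcript was tested where it reached 1 TPM in at least 4 libraries, so forms read only in the 6 libraries of the first experiment pass this filter more easily than forms read only in the 4 of the second, and these counts favour lower values.

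The spliced forms of Gas5 differed in how far they moved between experiments. The 557-base form had 18.8, 14.6 and 30.1 TPM in the controls and 35.5, 11.1 and 23.3 in the libraries labelled Reg1Δ/Δ of the first experiment, and 294 and 415 against 365 and 360 in the second. The 502-base form had 156, 151 and 163 against 162, 113 and 127 in the first and 492 and 501 against 394 and 379 in the second. The 346-base form lay between 228 and 540 TPM in all 10 libraries. The 557-base form starts further upstream and without a pyrimidine run, and the 502-base form starts 3 bases before the 346-base form.
Gas5, 557 bases: gagggcgtgtgaggggcggggtttaagtgg
Gas5, 502 bases: agCCTTTCggagctgtgcggcattctgagc
A retained-intron form of 403 bases, the highest of its kind in Gas5, had 139 to 195 TPM in the first experiment against 0.891 to 5.29 in the second. None of the 21 tested Gas5 transcripts differed by label over both experiments. Within the first experiment a 712-base retained-intron form was higher (log2 fold change 1.07, FDR = 0.0171 by limma over transcripts). This form was listed at 0 throughout the second, which could show no difference. Without retained-intron transcripts the log2 difference of Gas5 between experiments in the controls was 1.42 (FDR = 0.00034), against 0.52 with them, and that of Snhg1 was 2.58 (FDR = 0.000556), against 1.11.

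Snhg5 and Snhg1 had other leading forms in the 2 experiments. The 440-base form of Snhg5 had 53.8, 88.0 and 60.2 TPM in the controls and 102, 99.2 and 91.2 in the libraries labelled Reg1Δ/Δ of the first experiment, and was listed at 0 in all 4 libraries of the second. The 1004-base form had at most 11.4 TPM in the first. In the second it had 33.0 and 21.3 in the controls and 44.6 and 46.6 in the libraries labelled Reg1Δ/Δ. As shown above, it is the 1004-base form that carries the pyrimidine tract at its start. The 605-base spliced form of Snhg1 had 5.69, 10.4 and 7.36 TPM in the controls and 15.7, 17.5 and 15.7 in the libraries labelled Reg1Δ/Δ of the first experiment, without overlap (log2 fold change 1.01, FDR = 0.022 within that experiment), and 82.9 and 123 against 111 and 127 in the second, with overlap. Over both experiments it did not pass (0.70, FDR = 0.0525). By label, 3 of the 59 transcripts were higher, all of Snhg3, and 3 were lower, the 6983-base form of Malat1, the 3004-base form of Neat1 and a 2728-base retained-intron form of Snhg1 (-0.86, FDR = 0.0389), where 20.6% of all tested transcripts were called, 5.63% as higher and 14.9% as lower. Within the first experiment 5 were higher and 3 lower (20.4%, with 4.34% higher and 16.1% lower), and without library 3 labelled Reg1Δ/Δ the count was 3, all lower. Within the second 2 were higher and 3 lower (12.6%, with 3.93% higher and 8.64% lower), and without control 1, with 1 control library remaining, it was 5 and 9. The difference of the fold changes between experiments passed for 1 transcript, a 510-base retained-intron form of Snhg1 (1.97%, with 1.41% higher and 0.563% lower).

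The snoRNA genes inside the hosts were mostly read in the first experiment. Of 29 snoRNA genes annotated within the 7 hosts, 18 were in the files, and their highest TPM was 321 in the first experiment against 15.2 in the second. Snora73b, which guides ribosomal RNA processing from an intron of Snhg3, had 82.7, 125 and 141 TPM in the controls and 292, 267 and 321 in the libraries labelled Reg1Δ/Δ of the first experiment, a separation like that of its host, and at most 0.173 in the second. Snora73a, from another intron of Snhg3, was above 0 in all 10 libraries, with 85.0, 24.8 and 75.8 against 94.1, 131 and 147 TPM in the first experiment, then 14.3 and 15.2 against 12.1 and 4.19 in the second. Thus the groups did not overlap in the first experiment, where the libraries labelled Reg1Δ/Δ were higher, nor in the second, where they were lower. Snord87 of Snhg6 was below its controls in the libraries labelled Reg1Δ/Δ of the first experiment, with 102, 68.2 and 59.4 TPM in the controls and 28.2, 17.7 and 40.9 in the libraries labelled Reg1Δ/Δ. Snord80 of Gas5 had 76.6, 53.6 and 46.3 TPM in the controls and 5.09, 7.12 and 23.1 in the libraries labelled Reg1Δ/Δ of that experiment, and Snora24 of Snhg8 had 27.3, 8.62 and 22.2 against 40.7, 56.4 and 19.6. These 5 were picked from the 18 after their values were seen. Reads in an intron may come from the snoRNA, from the unspliced host or from a retained-intron form, and these cannot be told apart here.

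Of the tested neighbours of the host genes, Rcc1 differed by label and Slc3a2, Zbtb37 and Gm17300 did not pass. Slc3a2, an amino acid transporter subunit whose start lies 106 bases from that of Snhg1 and points away from it, had 721, 640 and 641 TPM in the controls and 655, 545 and 640 in the libraries labelled Reg1Δ/Δ of the first experiment, and 121 and 114 against 124 and 119 in the second (log2 fold change -0.05, FDR = 0.669). It was higher in the first experiment, where Snhg1 was lower. Zbtb37, which overlaps the start of Gas5 on the other strand, had a log2 fold change of -0.41 (FDR = 0.32), and Gm17300, which lies opposite Snhg3 and shares 347 bases with its 437-base form, of 0.39 (FDR = 0.335). Mcmdc2, which overlaps the end of Snhg6, and Frmd8os, which starts 145 bases from Neat1, were too low to be tested. Rcc1, the nucleotide exchange factor of Ran, overlaps Snhg3 on the same strand. Its TPM was 67.1, 59.1 and 69.5 in the controls and 106, 120 and 128 in the libraries labelled Reg1Δ/Δ of the first experiment, and 65.3 and 64.6 against 108 and 103 in the second (0.78, SE 0.10, FDR = 0.000126). The 2 Rcc1 transcripts that share exonic bases with Snhg3 held at most 0.625 TPM in any library, so the rise of Rcc1 was carried by the 6 that share none.

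The other genes of these pathways were taken from lists. Their counts are to be read against the 15% of all tested genes that were higher and the 37.9% that were lower. With quantile normalization these shares were 30% and 20.5%, and with median-of-ratios scaling 33.7% and 25.2%, so the values of all genes, and of the lists with them, shift with the scaling. Of 14 other snoRNA host RNAs 11 were tested, and 2 of them, Snhg4 (log2 fold change 0.79, SE 0.17, FDR = 0.0032) and Snhg10, were higher and none lower, with a median of 0.26 against -0.25 for all tested genes. Of 11 protein-coding snoRNA hosts 5 were higher, among them Rcc1, and 1 was lower, Eif4a2, a translation initiation helicase (-1.37, SE 0.16, FDR = 6.98e-05), with a median of 0.30. With quantile normalization the median of this list was 0.21 beside 0.14 for all tested genes, with 5 higher and 1 lower. With median-of-ratios scaling it was 0.72 beside 0.10, with 8 higher and 1 lower. Of 10 nonsense-mediated decay factors none was higher and 3 were lower, a share below that of all genes, with Upf2, a partner of Upf1, at -0.55 (SE 0.13, FDR = 0.0051) and Smg6, the endonuclease of the pathway, at -0.82 (SE 0.19, FDR = 0.0057), and Upf1 itself at 0.01. Their median was -0.17 where that of all genes was -0.25. It was 0.28 against 0.14 with quantile normalization and 0.22 against 0.10 with median-of-ratios scaling, and under each of these 4 were higher and none lower.

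Of 10 paraspeckle proteins 1 was higher (15% of all tested genes), the RNA-binding protein Dazap1 (0.34, SE 0.11, FDR = 0.0253), and none was lower (37.9%), with a median of 0.11. Sfpq (-0.20, FDR = 0.243) and Nono (-0.20, FDR = 0.138), which bind Neat1, did not pass. Of 7 nuclear speckle proteins Srsf2, a splicing factor, was higher (0.31, SE 0.09, FDR = 0.0192), and Srsf5, another splicing factor (-0.71, SE 0.15, FDR = 0.0034), and Son, a scaffold of the speckle, were lower, with a median of -0.02. With quantile normalization and median-of-ratios scaling the medians were 0.13 and 0.52 for the paraspeckle list and -0.09 and 0.40 for the speckle list, beside 0.14 and 0.10 for all tested genes. Of 11 other long noncoding RNAs 8 were tested, of which 1 was higher, Pvt1, a neighbour of Myc (1.96, SE 0.27, FDR = 0.000247), and 3 were lower, among them Tug1 (-0.57, SE 0.22, FDR = 0.0475), with a median of -0.47. With quantile normalization, where 30% of all tested genes were higher and 20.5% lower, the counts were 3 and none and the median was -0.13. The directions of Snhg3, Snhg5, Neat1 and Malat1 were the same under all 23 settings tried.

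For Gas5 and Malat1, the genes of most similar pattern were sought over the 10 libraries after taking off the mean of each experiment, which leaves the differences by label and between mice. Nearest to Gas5 were Snapc5 (Pearson r = 0.911), a subunit of the complex that transcribes small nuclear RNA genes, Stmn1 (r = 0.910), a regulator of microtubules, and Tnfrsf18 (r = 0.90). Nearest to Malat1 were Fcho2 (r = 0.992), an endocytic protein, Cbfb (r = 0.988), the partner of Runx1, and Etfrf1 (r = 0.987), with log2 fold changes by label of -1.52, -1.55 and -0.55. The highest of 12874 genes is chosen here, the libraries share their labels, and genes are not replicates, so these values are a description.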

How the data were processed

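RNA was prepared from sorted HSCs of 10 mice with a SMART-Seq kit that does not mark the strand, and sequenced. The deposited files hold log2 values, log2(TPM + 1) per transcript, which the authors made by alignment with STAR to GRCm38.p4 with the GENCODE M17 annotation and quantification with Salmon 0.9.1. The labels and the methods name different versions of the kit, and the header of library 2 labelled Reg1Δ/Δ of the second experiment carries the name of library 1. Their values differ, and the sample was taken from the deposited record. Depth is not known from these values. No library held the same values as another.

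TPM were recovered, summed per gene, and tested as log2(TPM + pseudocount 1) with limma 3.58.1 in R 4.3.3, first with the experiment as a term over all 10 libraries, then as group contrasts within each experiment, between the experiments, and for the difference of the 2 effects. Genes that reached 1 TPM in 5 or more libraries and transcripts that did so in 4 or more entered the fits, and calls were made at an adjusted p of 0.05. Tables were made in Python 3.11.15 with pandas 2.3.3, numpy 2.4.6 and matplotlib 3.10.9. The fit was tested on simulated data. Positions, transcript types and sequences came from GENCODE M21 on GRCm38, a later release on the same build.

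The members and lists were chosen with earlier results of these data known. Named were all 9 genes and Zc3h12a, the leading transcripts and those with at least 20% of a gene's TPM in an experiment, the 2 genes of lowest adjusted p of each other list with a mean TPM of at least 10, and overlapping or divergent neighbours. Other genes and transcripts were named after their values were seen. Snhg16, Miat and Oip5os1 were not matched and are not analysed here, and 1 marker of the B lineage list is not reported here. Alternatives were other scalings (protein-coding transcripts, quantile, median-of-ratios), filters, a pseudocount of 0.1, the 50 highest genes or retained-intron transcripts left out, a mean-variance trend, each library left out, no experiment term, a replicate block, each experiment alone, and, chosen after seeing the data, transcripts under 200 bases or the 485-base Malat1 transcript left out.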

Additional observations from a re-analysis of the deposited data

Results flagged for a closer look

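A 510-base retained-intron form of Snhg1 differed between the experiments in its change by label. In the first experiment it had 7.54, 9.44 and 5.33 TPM in the controls and 6.59, 6.11 and 6.37 in the libraries labelled Reg1Δ/Δ (log2 fold change -0.17, FDR = 0.617), and in the second it was listed at 0 in both controls and had 1.75 and 1.94 in the libraries labelled Reg1Δ/Δ (1.51, FDR = 0.0058). The difference of the 2 changes was 1.68 (SE 0.32, FDR = 0.0423 by limma over transcripts). In 7 of the 10 fits that each left out 1 library, no transcript of the 9 genes passed this test.

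Snhg12 was higher in every library labelled Reg1Δ/Δ than in every control of the first experiment, and lower in every one of the second. The difference of the 2 changes was -1.003 (SE 0.28), and it did not pass after adjustment (FDR = 0.214 by limma), with a range of FDR from 0.0619 to 0.435 over 21 alternatives.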

How the results depend on the processing

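Over both experiments, Snhg3 and Neat1 kept their calls under all 23 alternatives, with log2 fold changes from 1.001 to 1.503 and from -2.62 to -1.42. Snhg5 and Malat1 lost theirs only without the experiment term (FDR = 0.448 and 0.631). In that fit 2 genes were called (29.3% of all tested genes, 5.56% higher and 23.7% lower). Median-of-ratios scaling gave 7 called genes (5 higher and 2 lower) over both experiments, where it called 33.7% of all tested genes higher and 25.2% lower, and 9 (7 and 2) within the first (29.8% and 24%), with Gas5 there at 0.42 in place of -0.04. It moved the median of all tested genes from -0.25 to 0.10 over both and from -0.33 to 0.08 within the first. Scaled to protein-coding transcripts, the log2 difference of Gas5 between experiments changed sign, to -0.22 among the controls and -0.40 among the libraries labelled Reg1Δ/Δ, in place of 0.52 and 0.27. The cause was not tested. With each experiment fitted alone, 1 gene, Neat1, was called within the second (15.8% of all tested genes, 3.51% higher and 12.3% lower). Leaving out each library gave 5 to 8 genes that differed between experiments in the libraries labelled Reg1Δ/Δ, 3 to 8 transcripts called within the first experiment, 3 to 14 within the second and 0 to 4 for the difference between them. Within the second experiment 9 transcripts were called without a filter and 3 with quantile normalization, and for the difference 2 and 0. For the lists, quantile normalization, which called 30% of all tested genes higher and 20.5% lower, called 4 paraspeckle (3 and 1) and 1 speckle protein (lower). Median-of-ratios scaling called 7 and 5 of them, each as higher, 4 other snoRNA hosts and 2 other long noncoding RNAs, and protein-coding scaling called 1 other snoRNA host.

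Samples with the same number deviated little together (correlations of 0.0334, 0.175 and 0.0683 in the first and -0.0544 in the second experiment). With 2 libraries per group the deviations in a group mirror each other, so the second experiment gives 1 value only. Whether the numbers pair the mice cannot be told from these values. With the replicate block 4 genes were called over both experiments (48.5% of all tested genes, 13.2% higher and 35.3% lower). The number of genes was the same without it, and 5 transcripts were called in place of 6. Of the other long noncoding RNAs it called 1 higher and 2 lower in place of 1 and 3, and of the protein-coding snoRNA hosts 6 and 1 in place of 5 and 1. With each experiment alone and the replicate block, limma called 0 of all 12874 tested genes within the second experiment, the members included. In that fit 1 degree of freedom is left among the 4 libraries.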
